A study of Mus musculus with 2 samples.

Results

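The 8 genes described here, Ltf, Camp, Ngp, Fcnb, Orm1, Serpinb1a, Cd177 and Wfdc21, encode proteins of neutrophil specific granules or proteins made alongside them, and were chosen by symbol from the 27998 genes of the tables. Their levels were followed through granulocyte maturation in 2 libraries of single cells from the alveolar bone of male C57/B6 J mice aged 8 weeks, 1 from control mice without force and 1 from mice with orthodontic tooth movement (OTM), in which a NiTi coil spring pulled the first molar for a week. No transgene, deletion or drug was given in either group. Bone was digested with collagenase, cells were sorted on F4/80 and CD11b, and RNA was captured with 10x Genomics 3′ v2 chemistry, in which each unique molecular identifier (UMI) stands for 1 captured RNA molecule whatever the length of the gene. Mice were assigned at random to the groups, and the number pooled into each library was not stated.

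Specific granules are the secondary granules of the neutrophil. They are filled at the myelocyte and metamyelocyte stages, after the primary granules with their proteases and before the tertiary or gelatinase granules, and a granule protein ends up in the granule type that is forming while its gene is transcribed. The transcription factor C/EBP epsilon drives many of these genes, and mice or people without it lack normal specific granules. Because the mRNAs are made in the marrow and largely lost before the neutrophil reaches the blood, they are used as a clock of granulocyte maturation.

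The control table held 2863 barcodes with 14620877 UMIs, and 2058 barcodes of the OTM library held 16500733 UMIs. A minimum of 200 genes and a maximum of 5% mitochondrial UMIs left 2835 control barcodes (99.0%, median 3998 UMIs) and 2052 OTM barcodes (99.7%, median 6862 UMIs). The 8 genes took 4.38% of the UMIs of the kept control barcodes and 5.14% of those of the OTM barcodes. The libraries shared 6 barcode sequences. The study counts more cells per group than these tables hold, so shares of cells are shares of the barcodes analysed here. With 1 library per group no test could be made, so every difference between control and OTM compares these 2 libraries. Intervals are exact 95% intervals that cover counting error only, and levels are counts per 1000000 UMIs (CPM), summed over the cells of a class.

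On GRCm38 with GENCODE vM21, Ltf (ENSMUSG00000032496), which encodes the iron-binding protein lactoferrin, lies at chr9:111019271-111042767 on the plus strand. Camp (ENSMUSG00000038357, chr9:109847379-109849617, minus strand) encodes the cathelicidin antimicrobial peptide, and Ngp (ENSMUSG00000032484, chr9:110419747-110423012, plus strand), neutrophilic granule protein, is a relative of the cathelicidins. These 3 genes lie within 1.195 Mb of chromosome 9, a stretch that holds 31 protein-coding genes. Fcnb (ENSMUSG00000026835, chr2:28076378-28084885, minus strand) encodes ficolin B, a lectin of the complement system. Orm1 (ENSMUSG00000039196, chr4:63344560-63348163, plus strand) encodes orosomucoid, an acute-phase plasma protein. Serpinb1a (ENSMUSG00000044734, chr13:32842092-32851185, minus strand) encodes an inhibitor of neutrophil elastase, cathepsin G and proteinase 3. Cd177 (ENSMUSG00000052212, chr7:24743983-24760311, minus strand) encodes a surface and granule-membrane protein that in human neutrophils holds proteinase 3 at the cell surface. Wfdc21 (ENSMUSG00000051748, chr11:83746940-83752642, plus strand) encodes a small protein with a whey acidic protein domain. The span of each gene from first to last exon is given, and none overlapped another annotated gene.

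Promoter sequences of 5 of the 8 genes (Ltf, Camp, Ngp, Fcnb and Cd177) were found in the RefSeq table for GRCm38.p6, and the 250 bases before the start site were searched on both strands. They are shown because C/EBP epsilon is known to drive many specific granule genes. The core TTGCNNAA, read as TTNNGCAA on the other strand, occurred in 3 of the 5 (Ltf, Ngp and Fcnb) and in 9.56% of 32851 promoters of the same length. The hexamer GAGGAA, or TTCCTC, part of the site of the myeloid factor PU.1, occurred in 2 of the 5 (Ltf and Cd177) and in 23.3% of all promoters. A match of letters is a description of the sequence and not a measured binding site. Below, sequences run 5′ to 3′ on the strand of the gene, capitals mark the C/EBP core, and stretches end where GENCODE annotates an exon. Ltf is chr9:111019121-111019270 (plus strand), Camp is chr9:109849618-109849706 (minus), Ngp is chr9:110419597-110419746 (plus) and Fcnb is chr2:28084886-28085035 (minus). The core lay 75 to 68 bases before the RefSeq start of Ltf, 138 to 131 before that of Ngp and 123 to 116 before that of Fcnb. A further core outside the stretches shown lay 11 to 4 bases before the start of Ngp, in an annotated exon, and another 235 to 228 before that of Fcnb. For Camp the letters shown held no core. Of the 250 bases searched, 161 fell in an annotated exon for Camp, against 21 for Ltf, 61 for Ngp and 7 for Fcnb.
Ltf: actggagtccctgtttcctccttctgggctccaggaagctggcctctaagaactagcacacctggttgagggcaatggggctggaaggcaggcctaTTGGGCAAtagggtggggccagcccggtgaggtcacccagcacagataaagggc
Camp: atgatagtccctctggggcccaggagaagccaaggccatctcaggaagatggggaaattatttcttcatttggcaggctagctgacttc
Ngp: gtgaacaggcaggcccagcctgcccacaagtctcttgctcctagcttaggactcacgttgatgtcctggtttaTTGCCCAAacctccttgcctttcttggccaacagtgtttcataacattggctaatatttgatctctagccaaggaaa
Fcnb: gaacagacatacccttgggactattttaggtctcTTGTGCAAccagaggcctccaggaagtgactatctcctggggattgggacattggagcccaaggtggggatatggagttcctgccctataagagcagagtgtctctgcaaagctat

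Cells of both libraries were clustered together without the 8 genes, and clusters were named from other markers. Of the kept cells, 1212 control cells (42.8%, 40.9 to 44.6) and 991 OTM cells (48.3%, 46.1 to 50.5) fell into 4 granulocyte-like classes. A progenitor class with the primary-granule protease genes Elane, Mpo, Ctsg and Prtn3 held 94 control and 89 OTM cells. A cycling immature class, led by genes that included Cebpe, Spc25 and Rrm2, held 215 and 194. An immature class outside the cell cycle, led by genes that included Lcn2 and Ly6g, held 253 and 132. A mature class with Retnlg, Mmp9 and Cxcr2 held 650 and 576. Of the rest, 1086 control and 709 OTM cells were monocyte-like and 201 and 118 were cycling monocyte-like.

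The sort was for F4/80 and CD11b and the labels name macrophages, but the granulocyte-like cells held little of the F4/80 gene Adgre1, with 7.49 CPM in control and 5.36 CPM in OTM, against 111 and 125 CPM in monocyte-like cells. The macrophage receptor gene Csf1r was at 13.7 and 9.79 CPM in granulocyte-like cells and at 223 and 165 CPM in monocyte-like cells. The neutrophil surface gene Ly6g was at 538 and 502 CPM in granulocyte-like cells. The CD11b gene Itgam was not analysed here, because a pair of entries share its symbol. A mixed group of 261 control and 209 OTM cells carried both S100a8 (77247 and 88410 CPM) and Csf1r (162 and 129 CPM) and was kept out of both cell types. Its clusters were led by genes that included Ifitm1 and Clec4n, Fabp4 and Treml4, and C1qa and Pf4. They were set apart by their scores for monocyte and mature neutrophil markers. The low level of the 8 genes in monocyte-like cells thus depends partly on this rule. The mature class was not made of the same clusters in both libraries. A cluster led by the stefin genes Stfa2 and Stfa3 held 13 control and 406 OTM cells, a cluster led by interferon-response genes such as Ifit3 and Rsad2 held 230 and 23, and the remaining cluster held 407 and 147. The granulocyte-like cells of OTM were also deeper, with a median of 5004 UMIs against 3166 in control, and depth fell with maturation, from 10055 and 12707 UMIs in progenitors to 2477 and 3679 UMIs in mature cells.

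The genes that came first were Fcnb and Serpinb1a, both highest in the progenitor class. Fcnb was at 1021 CPM (961 to 1084) in control and 1092 CPM (1032 to 1154) in OTM progenitors. In cycling immature cells it was at 427 and 382 CPM, in immature cells at 64.0 and 38.6 CPM and in mature cells at 7.01 and 4.07 CPM. Thus 0.686% of its highest level was found in mature control cells and 0.373% in mature OTM cells, the lowest share of any of the 8 genes in both libraries. At least 1 Fcnb UMI was seen in 79.8% of control progenitors (Clopper-Pearson 95% interval 70.2 to 87.4) and 93.3% of OTM progenitors (85.9 to 97.5), and in 2.00% (1.07 to 3.40) and 1.74% (0.836 to 3.17) of mature cells. With each cell thinned to 1000 UMIs the shares were 51.1% and 58.4% against 0.923% and 0.347%.

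Serpinb1a declined more gradually. Its level was 978 CPM in control and 2396 CPM in OTM progenitors, 829 and 1400.4 CPM in cycling immature cells, 499.9 and 821 CPM in immature cells and 223 and 333 CPM in mature cells. The order of the 4 classes was the same in both libraries, with the OTM level above the control level in each. Of its highest level 22.8% was found in mature control cells and 13.9% in mature OTM cells.

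Camp, Ngp and Orm1 were highest in cycling immature cells. Camp stood at 23640.3 CPM in control and 29913 CPM in OTM progenitors, 71792 and 55098.5 CPM in cycling immature cells, 62263 and 51334 CPM in immature cells and 19677 and 9842 CPM in mature cells. For Ngp the levels in the same order were 16869 and 35971 CPM, 54476 and 70189 CPM, 49208 and 69654.5 CPM, and 21633 and 24973 CPM. In OTM the Ngp levels of cycling immature cells (69885 to 70494) and immature cells (69120 to 70192) had overlapping intervals, so their order was not resolved there. These were the most abundant of the 8 mRNAs in every granulocyte-like class, with Camp above Ngp in the 3 earlier control classes and Ngp above Camp in mature control cells and in all OTM classes. Orm1 was scarcer, at 72.7 and 277 CPM in progenitors, 234 and 396 CPM in cycling immature cells, 127 and 240.1 CPM in immature cells and 15.6 and 19.5 CPM in mature cells. It was nearly lost in mature cells, at 6.68% and 4.93% of its highest level, while Ngp kept 39.7% and 35.6% and Camp 27.4% and 17.9%.

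Ltf, Cd177 and Wfdc21 were highest in the immature class that had left the cell cycle. Ltf was at 1055 CPM in control and 1891 CPM in OTM progenitors, 7440.2 and 8124 CPM in cycling immature cells, 10566 and 13046 CPM in immature cells and 4000.7 and 3393 CPM in mature cells. Cd177 was at 123 and 321 CPM, 498 and 753 CPM, 668 and 919 CPM, and 390.2 and 597 CPM in the same order. Wfdc21 was at 2670.3 and 4079 CPM, 6297 and 6286 CPM, 9765 and 9091 CPM, and 6355 and 6435 CPM. Mature cells held 65.1% and 70.8% of the highest level of Wfdc21, 58.4% and 65.0% of that of Cd177 and 37.9% and 26.0% of that of Ltf. In all, 6 of the 8 genes were highest in an immature class, and each gene had its highest level in the same class in both libraries.

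**Figure D1:**
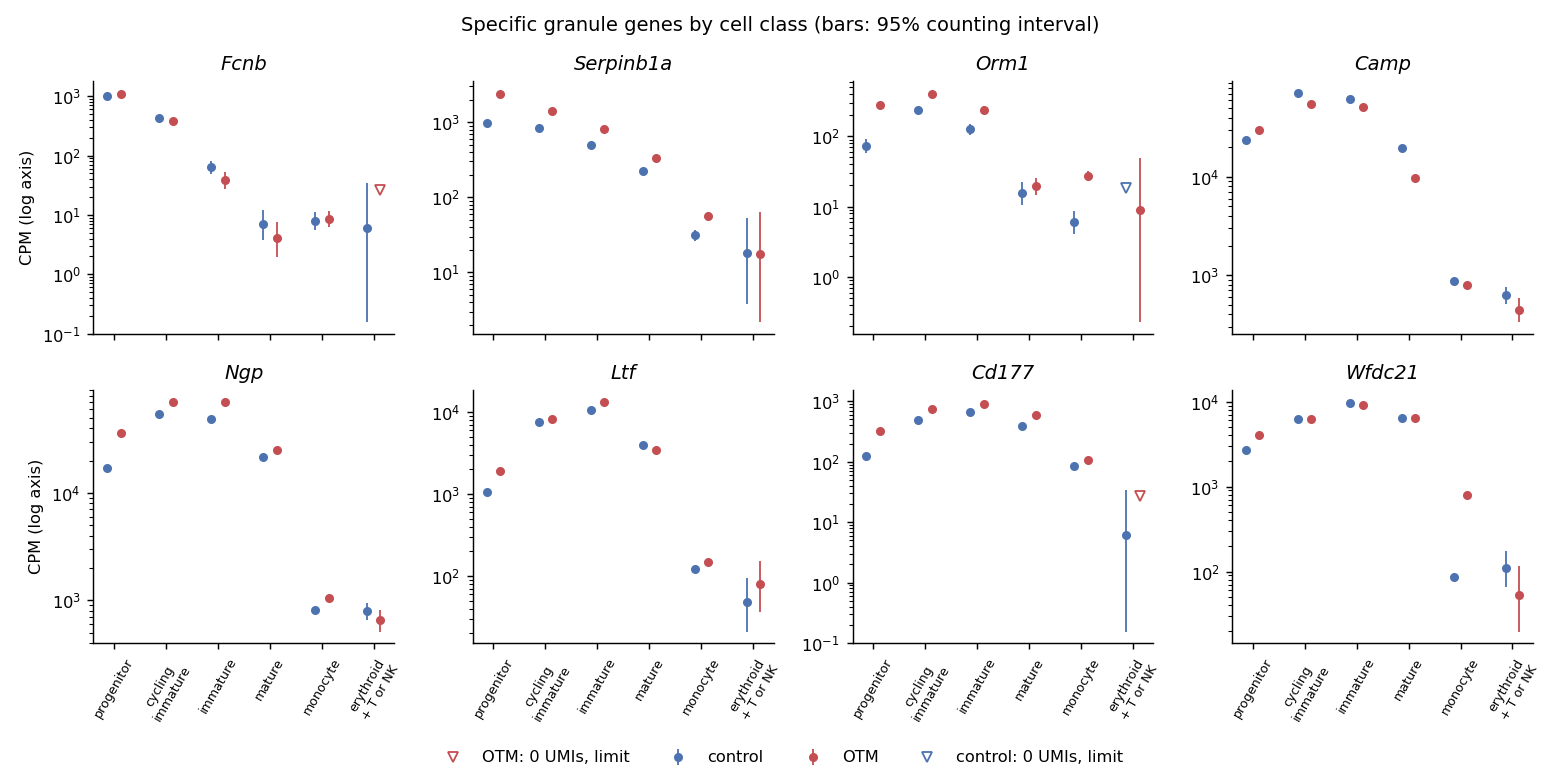
Level of each of the 8 genes (CPM, log axis) in the progenitor, cycling immature, immature, mature and monocyte-like classes, with 1 point per library and exact 95% counting intervals, many of them smaller than the points. Fcnb drops from 1021 and 1092 CPM in progenitors to 7.01 and 4.07 CPM in mature cells, while Wfdc21 stays at 6355 and 6435 CPM in mature cells.

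For a finer order, granulocyte-like cells of both libraries were ranked by a score from 6 late genes minus 12 early genes, none of them among the 8, and divided into 12 bins with 62 to 121 cells per library. Bin 1 was 76.2% progenitor in control and 80.7% in OTM, and bin 12 was 98.8% mature in control and wholly mature in OTM. Fcnb and Serpinb1a peaked in bin 1 in both libraries. Camp, Ngp and Orm1 peaked in bin 2, and Ltf and Wfdc21 in bin 5. Cd177 peaked in bin 5 in control and in bin 6 in OTM.

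The genes differed more in when they were lost than in when they appeared. Fcnb and Serpinb1a were at or above 50% of their highest bin from bin 1, as was Camp in OTM (51.7% in bin 1), and all others reached it in bin 2. The last bin at or above 50% was bin 2 in control and bin 1 in OTM for Fcnb, and bins 4 and 3 for Serpinb1a. It was bin 4 in both for Orm1, bins 6 and 5 for Camp, and bin 7 in both for Ngp and for Ltf. Cd177 stayed above it until bin 11 and Wfdc21 until bin 12 in both libraries. Fcnb, at 1014 and 1214 CPM in bin 1, was at 41.4 and 22.8 CPM by bin 5, where Ltf reached 9982 and 10802 CPM. In bin 12 Ltf was at 759 and 560.5 CPM, while Wfdc21 was at 4828 and 5535 CPM, which is 53.3% and 64.9% of its own highest bin. Median depth also fell along the bins, from 11289 and 13311 UMIs to 2176 and 3263 UMIs, and its part in the order was not tested.

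The order was computed under 11 other settings of the filter, clustering, ranking, bins and threshold, which with the reported setting gave 24 orders over both libraries. In all 24, Fcnb was the first to be lost or tied for first, alone in 23, and Wfdc21 was the last or tied for last. Fcnb and Serpinb1a peaked before Ltf in all 24, Camp and Ngp both peaked before Ltf in 23, and Orm1 was lost before Camp in 23. These orders come from the same cells and are not independent. The bins themselves were less stable. With at least 200 genes per 1000 UMIs, the last bin at or above 50% was 8 in control and 6 in OTM for Cd177. It was 8 and 12 for Wfdc21, and 4 in OTM for Ltf and Ngp.

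**Figure D2:**
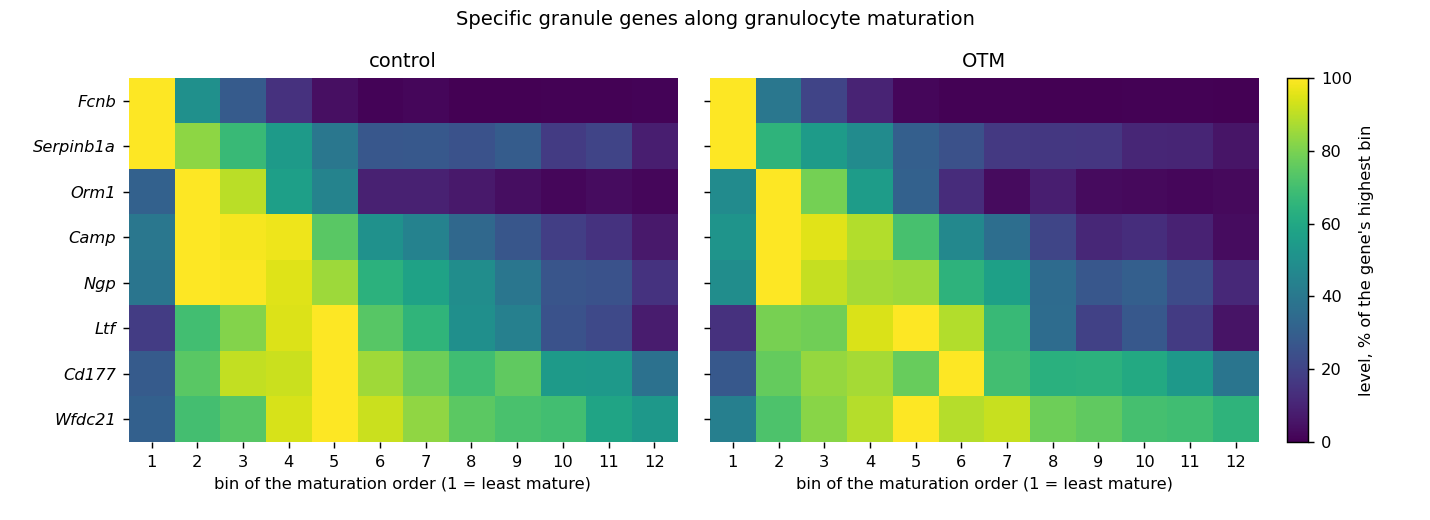
Level of each gene (rows) as a percent of its own highest bin (color) over 12 bins of granulocyte-like cells. Bins run from early to late (horizontal axis), with 1 panel per library. Fcnb is below 50% after bin 2 in control and bin 1 in OTM, whereas Wfdc21 remains above 50% in bin 12 of both libraries.

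Over all granulocyte-like cells, the 8 genes together were at 95951 CPM in control and 100628 CPM in OTM, a log2 ratio of 0.07. The direction of this sum was not settled, since its mean over the 12 bins was -0.02 and some other alternatives were also negative. Orm1, Serpinb1a and Cd177 were higher in OTM by more than 1.5-fold, none was lower by that much, and Camp and Ngp differed in opposite directions. Past 1.5-fold were thus 3 of 8 genes, beside 15.5% of the 3580 genes with at least 200 UMIs (6.06% higher and 9.47% lower). The median log2 ratio was 0.27 over the 8 genes and -0.06 over all genes. Scaling by TMM added 0.18 to every log2 ratio and by the median of ratios 0.22, which raised the higher share of all calls from 39.0% to 72.3% and 77.4% and brought Ngp past the fold as a 4th gene. A stricter reading of the filter, at least 200 genes per 1000 UMIs, left 479 control and 339 OTM granulocyte-like cells, of which 82 and 25 were cycling immature and 131 and 20 immature. Under it Orm1 (0.016), Serpinb1a (0.16) and Cd177 (-0.17) no longer passed, and Ltf (-1.48), Camp (-1.59), Ngp (-0.60) and Fcnb (-0.60) passed as lower in OTM, beside 41.2% of all genes past the fold under that filter.

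Orm1 was at 120.2 CPM in control and 234 CPM in OTM granulocyte-like cells, a log2 ratio of 0.96 (0.83 to 1.09). Serpinb1a was at 613 and 1131 CPM, a log2 ratio of 0.88 (0.83 to 0.94). Cd177 was at 427 and 655 CPM, a log2 ratio of 0.62 (0.55 to 0.69). These 3 genes were at a higher level in OTM in all 4 classes. The difference was less than 1.5-fold for Cd177 in immature cells (0.46) and for Serpinb1a in mature cells (0.58). For Orm1 in mature cells, with fewer than 200 UMIs, the direction was not resolved (0.32, -0.37 to 1.04). In the bins with at least 200 UMIs, Serpinb1a was higher in OTM in 9 of 9 with a mean log2 ratio of 0.79, Cd177 in 11 of 11 with a mean of 0.59 and Orm1 in 4 of 4 with a mean of 1.03. Class shares still differed between the libraries within some bins (bin 6 was 38.9% immature in control and 22.5% in OTM), and their part in these means was not tested.

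Camp was at 45607 CPM in control and 35811 CPM in OTM, a log2 ratio of -0.35 (-0.36 to -0.34), and Ngp at 36816.5 and 49916 CPM, a log2 ratio of 0.44 (0.43 to 0.45). Neither passed 1.5-fold over all granulocyte-like cells. Without the stefin-led mature cluster the log2 ratio of Camp was -0.05. Camp was lower in OTM in 11 of 12 bins, with a mean log2 ratio of -0.68, its one higher bin being bin 1 at 0.08. Ngp was higher in 10 of 12 bins, with a mean of 0.37, and slightly lower in bins 8 (-0.02) and 9 (-0.07). In bin 2, where both peak, Camp was at 72900.1 CPM in control and 58718 CPM in OTM, and Ngp at 54829 and 75830.2 CPM.

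The balance of the pair differed between the libraries in every granulocyte-like class. For each Camp UMI there were 0.714 Ngp UMIs in control and 1.20 in OTM progenitors, 0.759 and 1.27 in cycling immature cells, 0.790 and 1.36 in immature cells and 1.10 and 2.54 in mature cells. The ratio does not depend on how the totals are scaled. It was also higher in OTM in monocyte-like cells (0.935 and 1.34). In erythroid-like and T or NK-like cells in sum it was 1.25 (0.959 to 1.64) and 1.46 (1.01 to 2.14), an order that was not resolved. A ratio within a library shows only that the pair changed unequally.

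**Figure D3:**
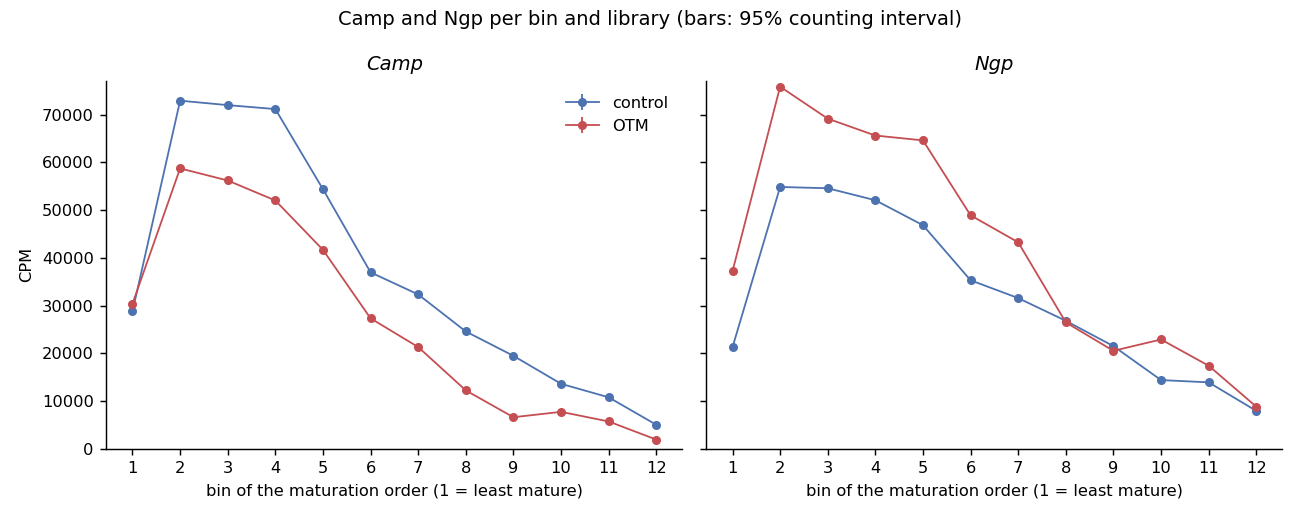
Levels of Camp and Ngp (CPM) over the 12 bins of granulocyte-like cells from early to late, 1 line per library with exact 95% counting intervals. In bin 2 the OTM line lies below the control line for Camp (58718 against 72900.1 CPM) and above it for Ngp (75830.2 against 54829 CPM).

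Ltf, Fcnb and Wfdc21 differed little over all granulocyte-like cells. Ltf was at 5772 and 6214 CPM (log2 ratio 0.11) and was higher in OTM in 7 bins and lower in 5. Fcnb was at 341 and 325 CPM (-0.07), with an interval of -0.16 to 0.01 that includes 0 and a positive ratio under TMM (0.11) and the median of ratios (0.15), and Wfdc21 was at 6253 and 6343 CPM (0.02), higher in 5 bins and lower in 7.

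By class, the progenitors differed most. There 6 of 8 genes were higher in OTM by at least 1.5-fold, beside 26.9% of 1141 genes past that fold in either direction, with a median log2 ratio of 0.97 over the 8 genes and -0.12 over all genes. The ratios were 1.93 for Orm1, 1.39 for Cd177, 1.29 for Serpinb1a, 1.09 for Ngp, 0.84 for Ltf and 0.61 for Wfdc21, and the genes within the fold were Camp (0.34) and Fcnb (0.10). In bin 1, which was mostly but not wholly progenitor, the ratios were 1.55 for Orm1, 1.19 for Serpinb1a, 0.81 for Ngp and 0.61 for Cd177, while Wfdc21 (0.39) was within the fold and Ltf was lower in OTM (-0.19, -0.28 to -0.10), so the calls of Ltf and Wfdc21 depended on how early cells were grouped. Progenitors made up 5.43% of bin 3 and none of bin 4 in control, and 8.79% and 6.10% in OTM. In cycling immature cells 3 of 8 passed (Orm1 0.76, Serpinb1a 0.76, Cd177 0.60), beside 9.76% of 1813 genes. In immature cells 2 of the 7 genes with at least 200 UMIs passed (Orm1 0.92, Serpinb1a 0.72), beside 17.8% of 707 genes. With TMM, which added 0.13 there, 4 of 7 passed, beside 16.8% of genes higher and 4.38% lower.

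In mature cells 1 of 6 genes was higher (Cd177, 0.61) and 1 lower (Camp, -1.0), beside 21.4% of 1356 genes (9.88% higher and 11.5% lower). With TMM, which added 0.18, 2 were higher and 1 lower, beside 17.0% of genes higher and 6.19% lower. The log2 ratio of Camp did not have the same sign in the 3 mature clusters. In the stefin-led cluster, which held most mature OTM cells, Camp was at 2898 CPM in the 13 control cells and 5189 CPM in the 406 OTM cells. It was thus higher in OTM there (log2 ratio 0.84, 0.55 to 1.15). In the largest mature cluster of the control library Camp was also higher in OTM, at 17684 CPM in control and 19785 CPM in OTM (0.16, 0.13 to 0.19). Only in the interferon cluster was it lower, at 23079 and 13525 CPM, a log2 ratio of -0.77. The lower level of the class as a whole thus goes with unequal shares of these clusters. In bins 8 to 12, which were mostly mature in both libraries, the log2 ratio of Camp lay between -1.56 and -0.82. In the largest mature cluster of the control library 4 of 6 genes were higher in OTM by at least 1.5-fold (Ltf 0.80, Ngp 1.02, Serpinb1a 1.22 and Cd177 0.79), beside 17.4% of 672 genes past it. In the stefin-led cluster 5 of 6 were higher, beside 36.1% of 679 genes, with 13 cells behind the control values. In the interferon cluster none was higher and 1, Camp, was lower, beside 18.5% of 426 genes.

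**Figure D4:**
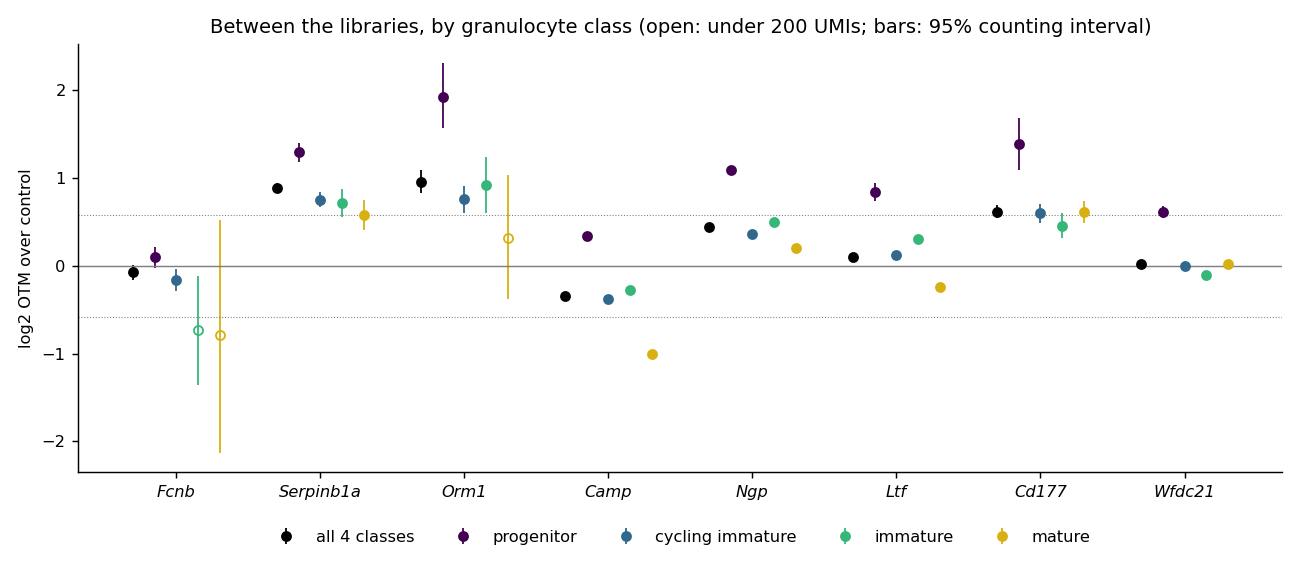
Log2 ratio of OTM over control for each gene in all granulocyte-like cells and in each of the 4 classes, with exact 95% counting intervals and dashed lines at 1.5-fold. Orm1, Serpinb1a and Cd177 lie above the upper line in all granulocyte-like cells (0.96, 0.88 and 0.62), and Camp lies at the other side of 0 in all classes but the progenitors.

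The other proteins of specific and gelatinase granules and the regulators give a setting for these values. Of 14 other granule genes, 2 were higher in OTM granulocyte-like cells by at least 1.5-fold, none was lower, 11 were within it and Olfm4 had too few UMIs, a share near the 15.5% of all genes past the fold. The higher ones were the haptoglobin gene Hp, at 1846 and 3257 CPM (log2 ratio 0.82), and Chil3, at 6816 and 10519 CPM (0.63). Lcn2, the siderophore-binding lipocalin of specific granules, was at 6682 and 9456 CPM (0.50). In progenitors 6 of these genes were higher (Lcn2, Hp, Chil3, Cybb, Itgb2 and Lyz2), none was lower, 4 were within the fold and 4 had too few UMIs, beside 26.9% of all genes past the fold and 12.9% higher.

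Among relatives and partners of the 8 genes, Wfdc17, of the same family as Wfdc21, was at 194 CPM in control and 858 CPM in OTM granulocyte-like cells (log2 ratio 2.15). The orosomucoid gene Orm2 was at 19.0 and 28.2 CPM (0.57), far below Orm1, and Prtn3, the proteinase 3 gene, at 818 and 566 CPM (-0.53). Near-identical copies such as the Orm and Serpinb1 genes may share reads, and counts between them are uncertain to that extent. Serpinb1c had no UMIs in granulocyte-like cells.

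The C/EBP epsilon gene Cebpe was highest in cycling immature cells in control and in progenitors in OTM, with 252 CPM in control and 387 CPM in OTM progenitors, 303 and 269.6 CPM in cycling immature cells, 132 and 78.2 CPM in immature cells and 43.1 and 16.3 CPM in mature cells. Over all granulocyte-like cells Cebpe, Cebpb, Spi1 and Runx1 were within 1.5-fold, Cebpa and Gfi1 had too few UMIs, and Klf5 was higher in OTM, at 10.3 and 24.0 CPM (log2 ratio 1.22).

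As a description of likeness, each gene's log2 level was correlated with that of 3572 others over 22 points (11 cell classes in each library), which share depth and free RNA within a library and are not independent. Nearest to Ltf were Mapk13 (r = 0.96), Lcn2 (0.96) and S100a9 (0.95), and nearest to Camp was Gca (0.97), which encodes grancalcin. Ngp was nearest to S100a9 (0.97), Wfdc21 to S100a8 (0.97), Cd177 to Trem3 (0.96), Serpinb1a to Gca (0.95), Fcnb to Chit1 (0.94) and Orm1 to Klf5 (0.93) and Cebpe (0.93). Among the 8 genes themselves, Camp and Ngp were most alike (0.986) and Fcnb and Cd177 least (0.498).

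In monocyte-like cells the 8 genes were present at a low level, Camp and Ngp in nearly every cell and the others in fewer. In control, the share of monocyte-like cells with at least 1 UMI was 92.5% for Ngp, 35.7% for Ltf, 26.0% for Cd177, 23.7% for Wfdc21, 11.05% for Serpinb1a, 3.31% for Fcnb and 1.75% for Orm1. In the deeper OTM library the shares were 99.6%, 51.5%, 42.9%, 66.6%, 22.4%, 4.80% and 13.5% in the same order. Monocyte-like cells held 2026 CPM in control and 2995 CPM in OTM, which is 2.11% (2.07 to 2.16) and 2.98% (2.93 to 3.02) of the granulocyte-like level. Both shares moved by more than 1.5-fold under some alternatives, such as totals without the abundant genes, as given in the last section. At least 1 Camp UMI was found in 93.6% of control monocyte-like cells (91.9 to 94.9, median depth 3985 UMIs) and 96.1% of OTM ones (94.3 to 97.4, 7180 UMIs), but also in every erythroid-like cell of both libraries (6891 and 12806 UMIs), a cell type that should lack it. The level was not equally low in all other groups. The mixed group held the 8 genes at 31031 CPM in control and 37207 CPM in OTM, and B cell-like cells, which should lack them, at 5421 CPM in 23 control cells and 20939 CPM in 6 OTM cells, where S100a8 was at 11366 and 46322 CPM. Thinned to 1000 UMIs, the Camp shares were 52.9% and 41.3% in monocyte-like cells and 53.8% (25.1 to 80.8) and 28.6% (3.67 to 71.0) in the 13 control and 7 OTM erythroid-like cells.

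As a measure of free RNA, erythroid-like and T or NK-like cells were pooled into 22 control and 9 OTM reference droplets, and UMIs per droplet were compared because hemoglobin RNA fills much of the erythroid total (Hbb-bs was at 299681 and 254226 CPM in erythroid-like cells). Camp was at 3.70 UMIs per monocyte-like droplet and 4.68 per reference droplet in control, a ratio of 0.789 (0.649 to 0.970), and at 5.68 and 5.56 in OTM, a ratio of 1.02 (0.774 to 1.38). Ngp was at 3.46 and 5.86 in control and at 7.59 and 8.11 in OTM. Per droplet, Camp and Ngp in monocyte-like cells were thus at or below, or not resolved from, the level of droplets that should hold neither. On the CPM scale the order was different, with Camp at 1.39 times the reference (1.14 to 1.70) in control and 1.78 times (1.35 to 2.40) in OTM, and Ngp at 1.04 times (0.869 to 1.24) and 1.63 times (1.29 to 2.08). The reference droplets were deeper (median 6548 and 11655 UMIs), and the 9 control T or NK-like cells, which hemoglobin does not dilute, held Camp at 523 CPM (375 to 709) against 871 CPM in monocyte-like cells. In B cell-like cells, left out of the reference, Camp was at 2380 CPM (2099 to 2688) and 6624 CPM (5900 to 7412), above the monocyte-like level in both libraries. Because the order depends on the scale and on the cells it is set against, no expression of Camp or Ngp in monocyte-like cells is read from these values. Ltf (0.516 and 0.364 in control, 1.07 and 1 in OTM) and Serpinb1a (0.134 and 0.136, 0.408 and 0.222) were not resolved from the reference per droplet. On the CPM scale control Ltf was at 2.49 times the reference (1.26 to 5.80), OTM Ltf at 1.87 times (0.978 to 4.10) and Serpinb1a at 1.72 (0.577 to 8.44) and 3.19 times (0.875 to 26.5), so for control Ltf the scales differ. Reference UMIs were too few to place Fcnb, at 37 UMIs in all control and 44 in all OTM monocyte-like cells, and Orm1, at 28 and 139 UMIs, of which 120 lay in 1 cluster of OTM cells led by Saa3.

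Cd177 and, in OTM, Wfdc21 stood above the reference on both scales, but not above the B cell-like cells in OTM. These held Wfdc21 at 404 CPM (294 to 543) in control and 1852 CPM (1479 to 2290) in OTM, above monocyte-like cells in both libraries. They held Cd177 at 45.9 CPM (14.9 to 107) and 109 CPM (35.4 to 254), from 5 UMIs in each library, and monocyte-like cells were not resolved from them. Cd177 was at 86.1 CPM in control and 108 CPM in OTM monocyte-like cells, 20.2% and 16.4% of the granulocyte-like level, against 1.91% and 2.21% for Camp. The reference droplets held 1 Cd177 UMI in control, and the monocyte-like level per droplet was 8.04 times theirs (1.44 to 318). In OTM the reference droplets held 0 UMIs. The monocyte-like level per droplet was 2.32 times a limit of 3 UMIs over all 9 droplets, without the counting error of the monocyte-like cells. On the CPM scale the exact lower limit was 3.27 times the reference. Across monocyte-like clusters with at least 40 cells of a library, Cd177 ranged from 26.5 CPM in the control cells of a cluster led by MHC class II genes to 122 CPM in a cluster of OTM cells led by Saa3.

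Wfdc21 was at 87.4 CPM in control and 795 CPM in OTM monocyte-like cells, which is 1.40% and 12.5% of the granulocyte-like level. Per droplet it was below the reference in control (0.371 and 0.818) and above it in OTM (5.70 and 0.667, a ratio of 8.55 with an interval of 3.93 to 23.3). On the CPM scale it was not resolved from the reference in control (0.797 times, 0.498 to 1.36) and above it in OTM (14.9 times, 6.82 to 40.5). Among the noncycling monocyte-like cells it was highest in the Saa3-led cluster of 361 OTM and no control cells, where Wfdc21 was at 10.4 UMIs per droplet and 1387 CPM. The same cluster held Saa3 at 17744 CPM, S100a8 at 12622 CPM, Lcn2 at 1092 CPM and Orm1 at 44.5 CPM, while in the OTM cells of the next largest monocyte-like cluster Wfdc21 was at 113 CPM, S100a8 at 2892 CPM, Lcn2 at 263 CPM and Orm1 at 8.58 CPM. Without the Saa3-led cluster, Wfdc21 was at 0.879 UMIs per OTM monocyte-like droplet, a ratio to the reference of 1.32 (0.599 to 3.62). In CPM it was at 128 (114 to 143) there against 53.5 (19.6 to 116) in the reference, so the gap was wider on that scale. In the same cells the 8 genes together were at 1898 CPM, 1.89% of the granulocyte-like level. Cycling monocyte-like cells, a class of both libraries, also held more Wfdc21 in OTM, at 146 CPM in control and 886 CPM in OTM. Per droplet they held 1.40 UMIs in control, 1.71 times the reference (1.06 to 2.93), and 12.7 in OTM, 19.0 times the reference (8.72 to 51.9). On the CPM scale the ratios were 1.34 (0.829 to 2.29) in control, which was not resolved from the reference, and 16.6 (7.60 to 45.2) in OTM. Since the Saa3-led cluster held cells of 1 library, a cell state and a feature of that library cannot be told apart.

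**Figure D5:**
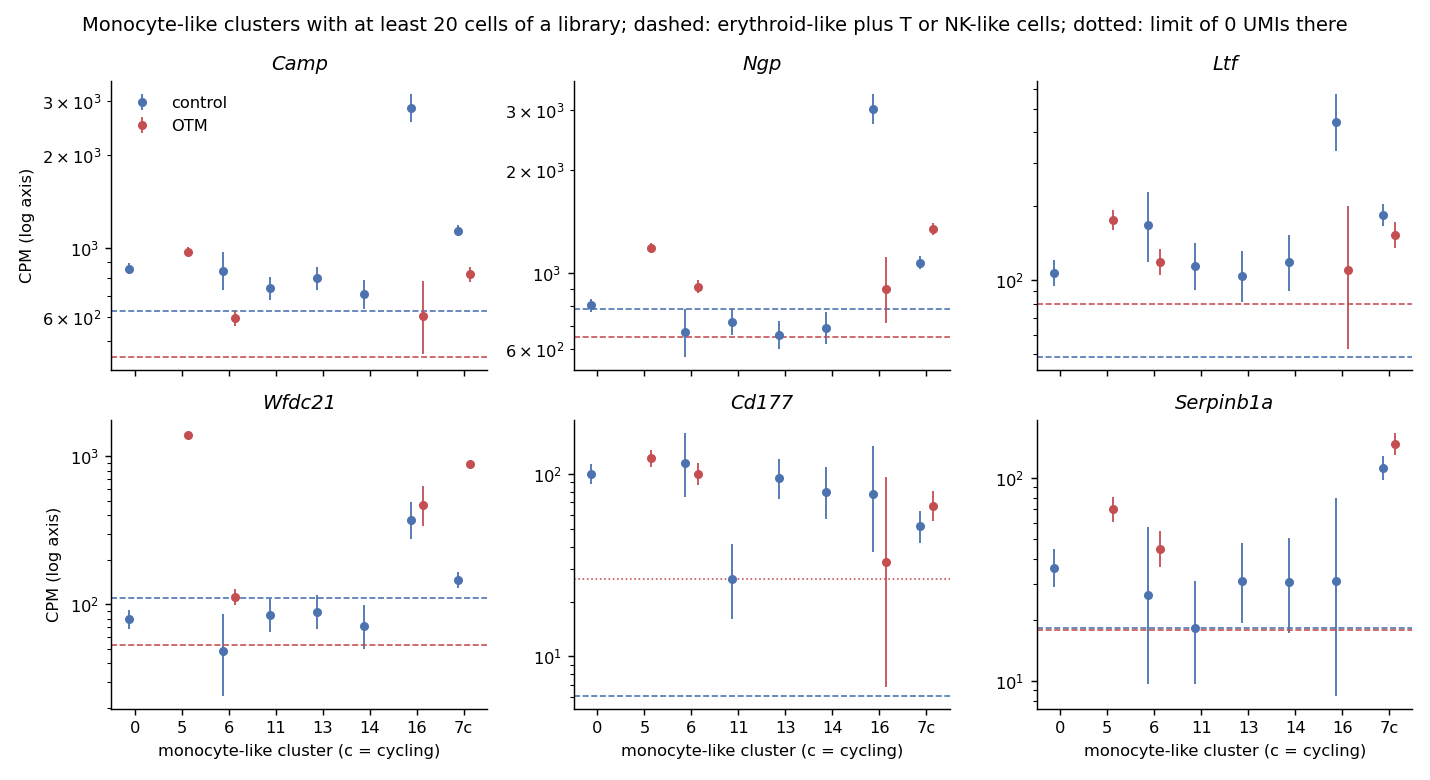
Levels (CPM, log axis) of Camp, Ngp, Ltf, Wfdc21, Cd177 and Serpinb1a in monocyte-like clusters, beside the reference droplets. Each cluster has 1 point per library, left out where the library had few cells in it. Wfdc21 stands out at 1387 CPM in the Saa3-led cluster of OTM cells against 113 CPM in the OTM cells of the next largest cluster, and Cd177 reaches 122 CPM there against 6.09 CPM in the control reference droplets and 0 UMIs in the OTM ones.

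Cycling monocyte-like cells held Fcnb and Serpinb1a at a higher level than the other monocyte-like cells. Markers of granulocyte progenitors moved with them, with a mean marker score, scaled from 0 to 1 over clusters, of 0.51 in this cluster against 0.113 to 0.209 in the other monocyte-like clusters, beside a monocyte score of 0.591. Csf1r was at 71.9 CPM in control and 50.9 CPM in OTM cycling cells, against 223 and 165 CPM in the other monocyte-like cells. Fcnb was at 27.6 CPM in control and 29.0 CPM in OTM, 3.44 and 3.35 times the level of monocyte-like cells, and Serpinb1a at 112 and 147 CPM, 3.56 and 2.58 times. These droplets were deeper, with a median of 9136 and 13873 UMIs, and held 10.9 and 11.8 Camp UMIs each, 2.32 (1.90 to 2.86) and 2.12 (1.60 to 2.87) times the reference. Serpinb1a was at 7.84 (2.65 to 38.3) and 9.46 (2.59 to 78.5) times the reference per droplet and at 6.13 (2.07 to 29.95) and 8.24 (2.26 to 68.4) times on the CPM scale, from 3 and 2 reference UMIs. Fcnb was not resolved from the reference in control, at 5.80 times (0.997 to 233) per droplet and 4.53 times (0.779 to 182) on the CPM scale, from 1 reference UMI. In OTM the reference held 0 UMIs. Against a limit of 3 UMIs, Fcnb was at 1.25 times that limit per droplet and 1.09 times in CPM, without its own counting error. The exact lower limit in CPM was 0.850 times the reference, so Fcnb was not resolved from it in OTM either. The part of progenitor RNA, or of droplets with more than 1 cell, in these values was not tested.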

How the data were processed

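Cells of 1 control and 1 OTM library were sequenced. The authors used Cell Ranger 3.0.0 (mm10), and the deposited values are raw counts of UMIs per gene and barcode (the submitters' processing notes also name Seurat 3.0.0). The 8 genes and the lists were chosen with earlier results of these data known. Barcodes with at least 200 genes and at most 5% mitochondrial UMIs were kept. Both libraries were clustered together without the 8 genes (log of counts per 10000, 2000 variable genes, 30 principal components, 15 neighbours, Leiden resolution 1, seed 1), giving 22 clusters in scanpy 1.11.5 with leidenalg 0.10.2. Names needed at least 3 markers of a fixed list, and the naming thresholds were set after the data were seen. No monocyte-like cluster had a marker of its list among its 10 leading genes, so that name rests on mean marker scores. Scrublet called 2 control and 4 OTM doublets (0.0705% and 0.195%), too few to have worked, and no barcode was removed as a doublet.

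Levels are CPM with exact Poisson intervals. Intervals of ratios are conditional binomial and exact, and the log2 ratios of the 8 genes use the sums as counted. For the shares of all genes past the fold, each sum was raised by 0.5 UMIs. Shares of cells have Clopper-Pearson intervals. No p-value was computed. Genes with at least 200 UMIs over both libraries counted towards a 1.5-fold call. A limit for 0 UMIs is 3 UMIs. The genes named are the 8, the fixed lists of granule genes, relatives and transcription factors, and the 3 genes nearest to each of the 8 (log2 of CPM + 10). Other markers, and the levels by cluster and per droplet, were added after the data were seen. Alternatives changed the filter, clustering, doublets, totals, scaling (TMM, edgeR 4.0.16, R 4.3.3, and median of ratios), fold and ranking. The work used pandas 2.3.3, scipy 1.17.1 and numpy 2.4.6 in Python 3.11.15, and the ratio and interval code was tested on simulated data. Cebpd and Itgam were not analysed here.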

Additional observations from a re-analysis of the deposited data

Results flagged for a closer look

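The 34 barcodes left out by the filter, which entered no comparison, held the 8 genes at 3521 CPM in sum. Signal in data outside the comparisons is the reason to name this value, and it lies between the monocyte-like and the granulocyte-like levels.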

How the results depend on the processing

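No paired analysis was possible because each group held 1 library. The summed log2 ratio of OTM over control in granulocyte-like cells (0.07) was -0.98 with a minimum of 200 genes per 1000 UMIs, a filter that kept 479 control and 339 OTM granulocyte-like cells. It was 0.10 at resolution 2, 0.094 with 20 principal components, -0.012 with each library clustered alone, 0.085 without Scrublet doublets, 0.046 with totals that leave out mitochondrial, ribosomal protein and hemoglobin genes, 0.047 with totals without the 8 genes, S100a8 and S100a9, 0.25 with TMM, 0.29 with the median of ratios and 0.16 as the mean over classes. Chosen after seeing the data, the mean over 12 bins gave -0.02 and all granulocyte-like cells without the stefin-led mature cluster gave 0.32. The direction of the sum is therefore not settled. The genes past 1.5-fold were 0 at 2-fold and 3 or 4 under the other alternatives run for this count, all higher in OTM except under the stricter filter, where 4 were lower. As the mean over 12 bins, Camp (-0.68) also passed as lower. Orm1, Serpinb1a and Cd177 passed in 12 of 13 alternatives each, all but the stricter filter, where Cd177 reversed to -0.17. Camp was lower in OTM in 13 of 13 (-1.59 to -0.05) and Ngp higher in 12. The -0.05 for Camp came from leaving out the stefin-led mature cluster, so the size of its difference depended on that cluster. The background past the fold was 41.2% with the stricter filter, 3.10% at 2-fold and 43.9% with no minimum of UMIs. The monocyte-like level in control (2.11%) was 2.41% with the stricter filter, 2.16% at resolution 2, 1.87% with libraries alone, 1.91% with the 8 genes kept, 2.06% without doublets, 2.57% without mitochondrial, ribosomal protein and hemoglobin genes and 1.32% with totals without the abundant genes. In OTM (2.98%) it was 5.81% with the stricter filter, 3.31% with libraries alone, 2.84% with the 8 genes kept, 3.54% without mitochondrial, ribosomal protein and hemoglobin genes, 1.90% with totals without the abundant genes and 1.89% without the Saa3-led cluster, chosen after seeing the data. At resolution 0.5 no separate immature class formed. The number of genes highest in an immature class was 5 there and 6 under the other alternatives. Causes were not tested, and with 1 library per group no replicate spread limits any of these values.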
